A study of Mus musculus with 12 samples.

Results

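The type I interferon-stimulated genes are 42 listed gene symbols, taken by name from tables of 24346 symbols. All 42 were among the 11808 genes that reached 1 FPKM (a level scaled to transcript length and library size) in at least 3 of 12 libraries. Mx2 and Ifi44 reached 1 FPKM in only 1 and 2 of the 6 B16F10 libraries, so they entered through the MC38 libraries, where they were high. The libraries are bulk RNA-seq of tumour-associated macrophages sorted from Arg1-RFP mice, in which a red fluorescent protein reports Arg1, an enzyme that breaks down arginine. Each group had 3 libraries: RFP+ cells from B16F10 tumours, RFP- cells from B16F10 tumours, RFP+ cells from MC38 tumours and RFP- cells from MC38 tumours. All 4 groups shared the reporter, and were sorted as CD45+ F4/80+ CD11b+ MHCII+ cells without Ly6C, Ly6G, NK1.1, B220 or CD90.2. B16F10 is a mouse melanoma line and MC38 a mouse colon carcinoma line, and the labels used here give neither the hosts' age and sex nor the reporter construct nor the time of harvest.

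Type I interferons are secreted alarm proteins that bind the receptor IFNAR1/IFNAR2 and switch on the kinases JAK1 and TYK2. These activate a complex that holds STAT2 and IRF9, which binds the interferon-stimulated response element in promoters and turns on antiviral genes, among them the amplifier IRF7 and the brake USP18. In tumours, macrophages are both sources and targets of this signal, which is known for its part in antigen presentation and in the recruitment of T cells.

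For 33 of the 42 genes a RefSeq promoter was at hand (build GRCm38.p6, 250 bases before to 50 after the start). Dhx58, Mx1, Mx2, Oas2, Usp18, Rtp4, Zbp1, Parp9 and Parp14 had no entry. The response element core (GAAA, any 2 bases, GAAA), read on both strands, stood in 14 of the 33 promoters (42.4%), against 3.99% of 27025 genes. The promoters printed here belong to genes on which the results turn: Isg15, Ifit3 and Oas1g hold the response element core, Irf7 and Ifnar2 do not. Capitals mark the matched bases of that core, overlapping matches merged. The windows are chr4:156200769-156201068 on the minus strand (Isg15), chr19:34583279-34583578 on the plus strand (Ifit3), chr5:120887564-120887863 on the minus strand (Oas1g), chr7:141266375-141266674 on the minus strand (Irf7) and chr16:91372533-91372832 on the plus strand (Ifnar2).
Isg15: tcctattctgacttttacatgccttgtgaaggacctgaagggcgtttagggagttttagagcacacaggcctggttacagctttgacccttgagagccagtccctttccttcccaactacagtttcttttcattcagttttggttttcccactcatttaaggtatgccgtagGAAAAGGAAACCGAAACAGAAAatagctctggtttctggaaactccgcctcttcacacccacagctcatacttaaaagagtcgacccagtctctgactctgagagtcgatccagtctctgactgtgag
Ifit3: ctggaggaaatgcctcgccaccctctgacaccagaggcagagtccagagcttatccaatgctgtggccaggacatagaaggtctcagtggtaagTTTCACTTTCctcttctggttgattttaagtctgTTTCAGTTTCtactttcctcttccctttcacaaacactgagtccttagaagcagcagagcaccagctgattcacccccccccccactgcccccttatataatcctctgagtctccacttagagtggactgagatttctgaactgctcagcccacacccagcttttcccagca
Oas1g: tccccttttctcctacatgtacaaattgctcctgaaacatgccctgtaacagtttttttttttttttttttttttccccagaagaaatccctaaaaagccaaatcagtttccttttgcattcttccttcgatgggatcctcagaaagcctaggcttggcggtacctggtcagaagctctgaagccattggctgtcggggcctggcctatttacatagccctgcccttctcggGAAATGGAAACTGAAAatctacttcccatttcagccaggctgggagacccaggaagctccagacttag
Irf7: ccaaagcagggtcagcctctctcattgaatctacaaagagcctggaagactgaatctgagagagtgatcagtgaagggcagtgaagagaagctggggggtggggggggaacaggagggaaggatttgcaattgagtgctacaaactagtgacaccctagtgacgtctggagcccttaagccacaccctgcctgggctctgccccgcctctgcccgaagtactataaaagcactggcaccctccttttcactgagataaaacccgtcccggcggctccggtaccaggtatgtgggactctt
Ifnar2: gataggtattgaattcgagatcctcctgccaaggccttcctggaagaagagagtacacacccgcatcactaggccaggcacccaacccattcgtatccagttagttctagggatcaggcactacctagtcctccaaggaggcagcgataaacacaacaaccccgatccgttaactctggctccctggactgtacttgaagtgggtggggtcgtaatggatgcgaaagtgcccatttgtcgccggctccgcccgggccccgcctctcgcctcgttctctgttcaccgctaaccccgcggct
Isg15 holds 3 overlapping matches in the run of capitals, read on the strand shown. In Ifit3 the 2 matches lie on the other strand, so they appear as TTTC motifs, and in Oas1g 2 matches overlap close to the start site.

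The labels were checked with Arg1 itself, which stood at 615, 642 and 916 FPKM in B16F10 RFP+ libraries against 62.8, 56.2 and 125 FPKM in B16F10 RFP- libraries. In MC38 it stood at 471, 553 and 394 FPKM in RFP+ libraries against 56.04, 58.5 and 40.6 FPKM in RFP- libraries. Values are listed by the number in the title, which is 12, 11 and 3 in B16F10 and 1, 2 and 3 in MC38, and which stands once in each gate. The value of a single read was 3.02 to 3.62 times that of the deepest library in B16F10 and 1 to 1.18 times in MC38, so B16F10 was the shallower set. The B16F10 RFP- library with number 12 stood apart, with a summed FPKM of 815591 against 614875 to 699948 in the other 11, and gate values of named genes that move by over 1.5 times without it are given without it as well. P-values measure the spread between libraries, and since libraries are not assigned to animals in the labels, this spread may be partly technical. All 16 macrophage core genes averaged over 1 FPKM in each group, and they summed to 9778 to 19243 FPKM in B16F10 RFP+, 8372 to 18424 FPKM in B16F10 RFP-, 53081 to 54300 FPKM in MC38 RFP+ and 43806 to 46693 FPKM in MC38 RFP-. The 10 melanocytic genes, which pigment cells and B16F10 share, summed to 8243 to 10832 FPKM in B16F10 RFP+, 8274 to 10831 FPKM in B16F10 RFP-, 14.5 to 19.4 FPKM in MC38 RFP+ and 11.3 to 14.9 FPKM in MC38 RFP-.

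All 42 genes fell in B16F10 relative to MC38, in RFP+ cells and in RFP- cells (limma, adjusted p under 0.05 over all genes tested). For Mx2 and Ifi44, which entered through MC38, this is a description, and the count over the others is 40 of 40 in each gate. No B16F10 library of either gate reached the lowest MC38 library of that gate for any of the 42. Of all genes tested, 20% fell in RFP+ cells and 21.9% fell in RFP- cells, and 24.8% and 22.8% were lower without overlap. The median log2 difference of the 42 was -2.04 in RFP+ cells (range -4.11 to -1.15) and -2.41 in RFP- cells (range -4.18 to -1.20), beside 0.23 and 0.23 over all genes. These differences are on the scale log2(FPKM + 1), which understates the change of low genes. In bulk RNA, fewer cells of a type and less RNA per cell cannot be told apart. The macrophage core genes fell as well, 15 of 16 in each gate, with medians of -2.04 in RFP+ cells and -2.01 in RFP- cells. Their differences ranged from -2.85 to -0.58 and from -3.08 to -0.39. Of the 42 genes, 21 lay below the core median in RFP+ cells and 28 in RFP- cells. Sums over other cell type lists moved with the tumour as well. The 7 fibroblast genes summed to 1.87 to 2.17 FPKM in B16F10 RFP+, 2.27 to 3.46 FPKM in B16F10 RFP-, 55.9 to 64.7 FPKM in MC38 RFP+ and 48.3 to 60.4 FPKM in MC38 RFP-. Most of the MC38 sums was Dcn and Col3a1, and Pdgfra was higher in MC38 too. Lum went the other way, with means of 1.75 and 1.91 FPKM in B16F10 RFP+ and RFP- against 0.0434 and 0.264 FPKM in MC38. The collagen gene Col1a1 was at no more than 0.162 FPKM in any library, and Col1a2 and Pdgfrb averaged under 1 FPKM in every group. The neutrophil genes summed to 19.9 to 305 FPKM in B16F10 RFP+, 23.6 to 801 FPKM in B16F10 RFP-, 3.82 to 9.67 FPKM in MC38 RFP+ and 2.47 to 7.60 FPKM in MC38 RFP-, with Elane at 0 in every group but B16F10 RFP-. Tumour type, depth, RNA of these other cells and any batch cannot be told apart in this comparison, and the genes are also given after scaling every library to the median of the 16 core genes. That scaling moved the median of all genes by 1.60 in RFP+ cells and 1.63 in RFP- cells, to 1.83 and 1.85.

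**Figure D1:**
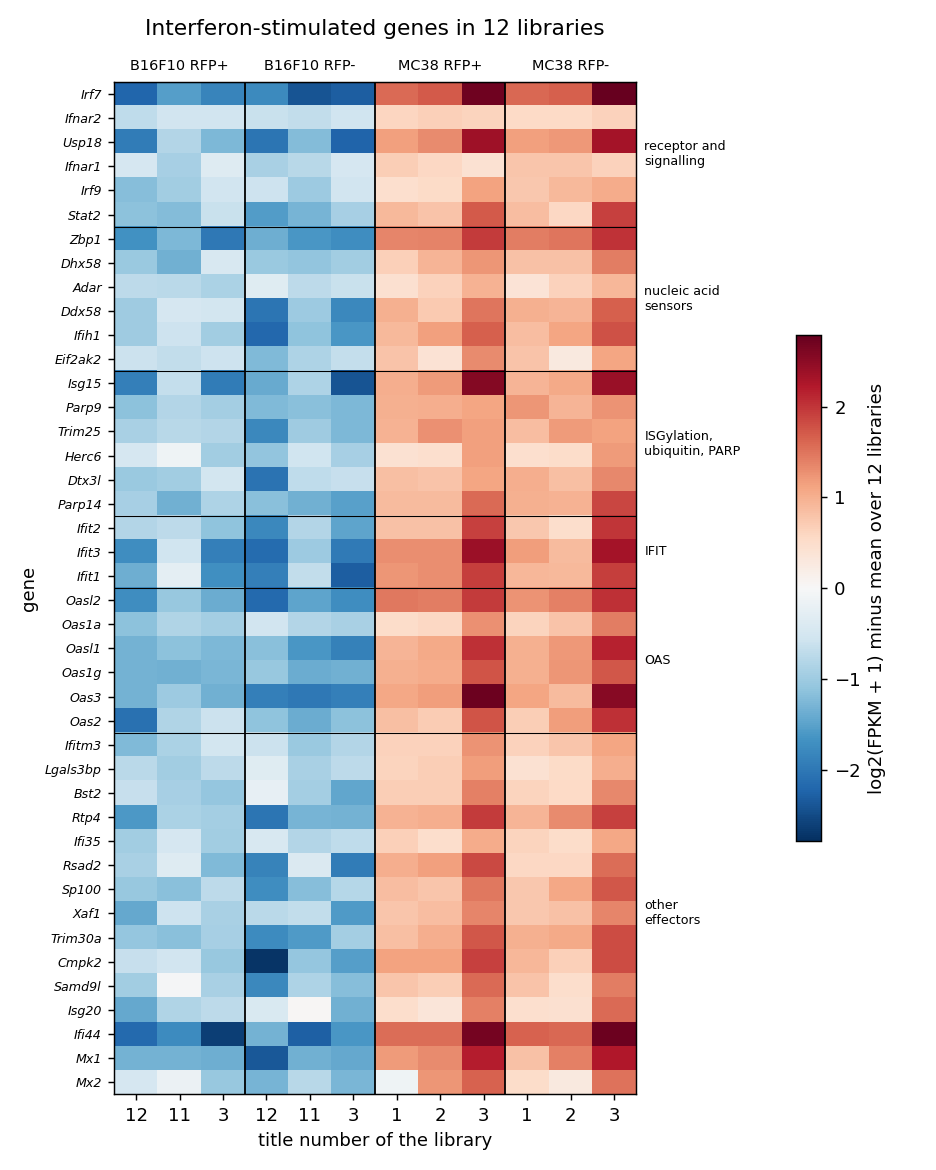
Each row is 1 of the 42 genes, grouped by role, and each column 1 library under its title number; colour gives log2(FPKM + 1) minus the gene's mean over 12 libraries. Nearly all squares are blue in the 6 B16F10 columns and red in the 6 MC38 columns, and both MC38 libraries with number 3 are the darkest red for most genes.

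After the core scaling, 11 of the 42 genes were lower in B16F10 and 2 higher in RFP+ cells (limma, adjusted p under 0.05), where 3.12% of all genes were lower and 84.5% higher. In RFP- cells 21 were lower and 3 higher, where 3.48% were lower and 83.3% higher. Without Mx2 and Ifi44 the lower counts were 10 and 19 of 40. The scaled medians of the 42 were -0.23 in RFP+ cells and -0.60 in RFP- cells. The genes lower in both gates on the core scale were Irf7, Isg15, Ifit3, Ifi44, Mx1, Oas1g, Oas3, Oasl1, Oasl2, Usp18 and Zbp1. Ifnar2 was higher in both gates. On neither scale did any of the 42 pass in the test of the difference between the gates, so a call in 1 gate alone shows no difference between them. On this scale the 14 genes with the response element core had medians of -0.35 in RFP+ cells and -0.85 in RFP- cells, and the 19 without it 0.00 and -0.40, given as a description.

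**Figure D2:**
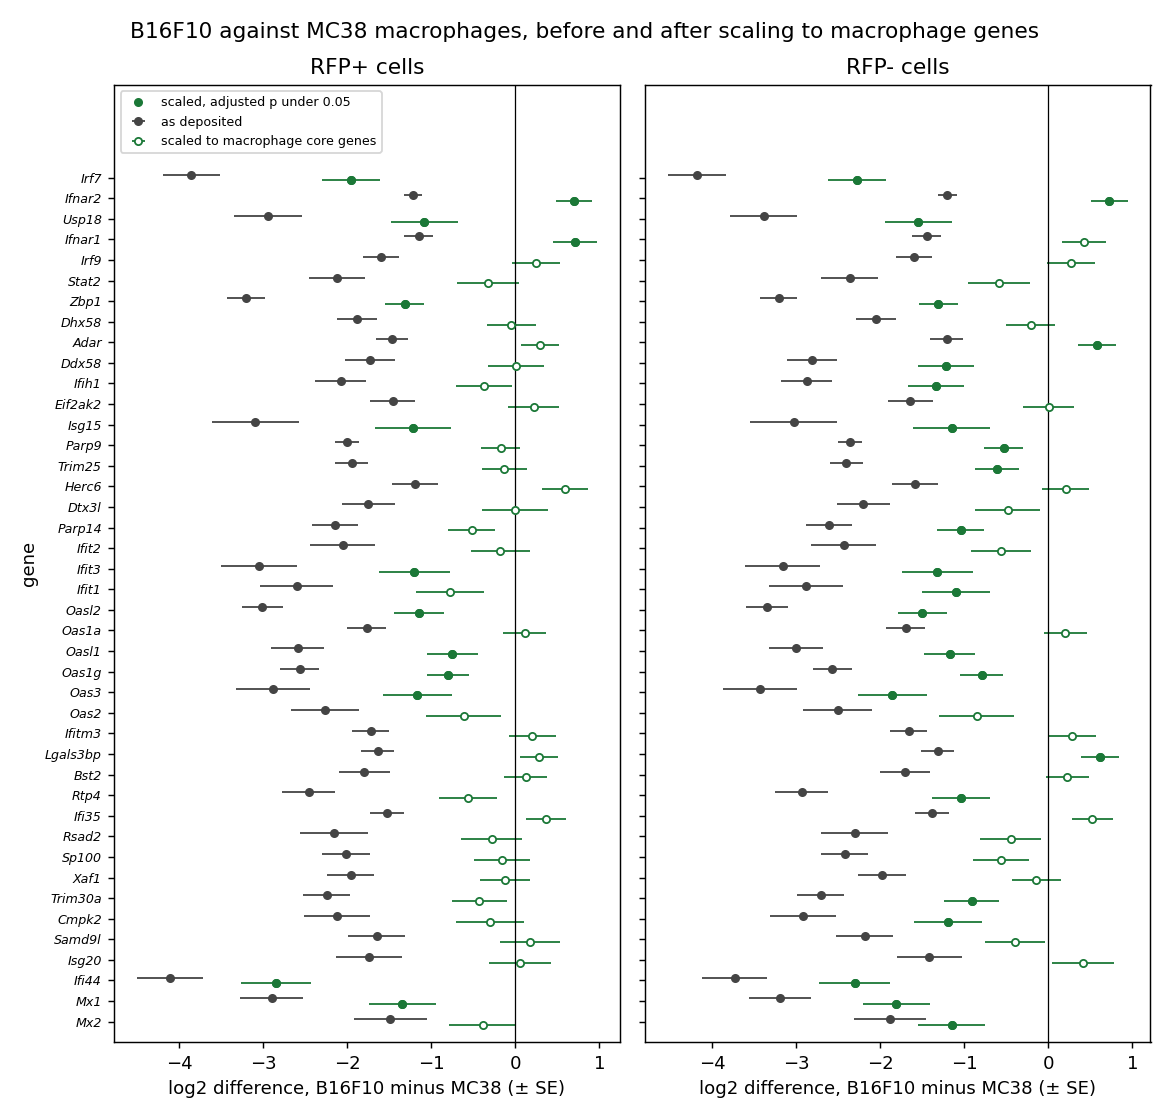
Horizontal axis: log2 difference, B16F10 minus MC38, with its SE, for each of the 42 genes in RFP+ cells (left) and RFP- cells (right). Grey points are values as deposited, all between -4.18 and -1.15; green points are after scaling to the macrophage core genes, filled where the adjusted p was under 0.05, and lie on both sides of 0.

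Of the 42 genes, the receptor chain Ifnar1 had the smallest difference in RFP+ cells, and the receptor chain Ifnar2 in RFP- cells. Ifnar1, the chain that carries TYK2, had 18.97, 13.5 and 20.5 FPKM in B16F10 RFP+ libraries and 43.1, 40.3 and 36.1 FPKM in MC38 RFP+ libraries. In RFP- cells it had 13.8, 15.01 and 19.01 FPKM in B16F10 and 46.1, 46.1 and 42.3 FPKM in MC38. The groups did not overlap, and the log2 differences were -1.15 ± 0.17 (limma adjusted p 9.44e-05) and -1.45 ± 0.17 (adjusted p 1.16e-05). Ifnar1 turned to 0.71 on the core scale in RFP+ cells (adjusted p 0.0177) and 0.43 in RFP- cells (adjusted p 0.134). Ifnar2, the chain that binds interferon tightly and carries JAK1, had 74.9, 85.2 and 85.7 FPKM in B16F10 RFP+ libraries and 187, 195 and 191 FPKM in MC38 RFP+ libraries. In RFP- cells it had 79.7, 76.6 and 84.2 FPKM in B16F10 and 182, 181 and 194 FPKM in MC38. Its libraries lay closer together than those of any other of the 42 genes, with a residual SD of 0.07 on the log2 scale. Its log2 difference was -1.21 ± 0.11 in RFP+ cells (limma adjusted p 1.18e-06) and -1.20 ± 0.11 in RFP- cells (adjusted p 1.15e-06). It rose by 0.70 on the core scale in RFP+ cells (adjusted p 0.00643) and by 0.73 in RFP- cells (adjusted p 0.0051).

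Below the receptor, Stat2 and Irf9 code for members of the complex that binds the response element. Irf9 had 10.5, 12.3 and 16.8 FPKM in B16F10 RFP+ libraries and 34.7, 36.6 and 55.6 FPKM in MC38 RFP+ libraries, a log2 difference of -1.60 ± 0.21 (limma adjusted p 3.72e-05). In RFP- cells it had 16.5, 11.9 and 16.9 FPKM in B16F10 and 43.02, 47.7 and 52.1 FPKM in MC38, a difference of -1.60 ± 0.21 (adjusted p 3.20e-05). The groups did not overlap in either gate, and on the core scale Irf9 had 0.24 and 0.27, neither past the threshold. Stat2 had 5.83, 5.54 and 8.83 FPKM in B16F10 RFP+ libraries and 26.96, 25.2 and 48.1 FPKM in MC38 RFP+ libraries. In RFP- cells Stat2 had 4.12, 5.13 and 6.99 FPKM in B16F10 and 26.3, 21.5 and 55.00 FPKM in MC38. Its log2 differences were -2.12 ± 0.33 and -2.37 ± 0.33 (limma adjusted p 0.000142 and 4.97e-05), and -0.32 and -0.59 on the core scale, where neither passed.

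Irf7, the factor that amplifies interferon alpha production, was the gene with the widest gap in RFP- cells. It had 20.5, 33.4 and 26.6 FPKM in B16F10 RFP+ libraries and 295, 321 and 650.5 FPKM in MC38 RFP+ libraries. In RFP- cells it had 27.8, 17.7 and 18.98 FPKM in B16F10 and 299.7, 311 and 682 FPKM in MC38. Both MC38 libraries with number 3 carried more than the others of their group, and no B16F10 library came near the lowest MC38 one. Irf7 was 14.5-fold lower in B16F10 RFP+ cells (log2 -3.86 ± 0.34, limma adjusted p 1.05e-06) and 18.1-fold lower in B16F10 RFP- cells (log2 -4.18 ± 0.34, adjusted p 4.67e-07). The core scale left log2 differences of -1.95 ± 0.34 (adjusted p 4.73e-05) and -2.28 ± 0.34 (adjusted p 9.19e-06). Usp18, which removes ISG15 from proteins and blocks the receptor, had 7.90, 18.5 and 13.3 FPKM in B16F10 RFP+ libraries and 75.1, 84.4 and 174 FPKM in MC38 RFP+ libraries. In RFP- cells Usp18 had 7.33, 13.8 and 6.25 FPKM in B16F10 and 74.7, 78.2 and 170.5 FPKM in MC38. It had log2 differences of -2.95 ± 0.40 and -3.39 ± 0.40 (limma adjusted p 4.40e-05 and 1.15e-05), and stayed lower on the core scale, at -1.08 and -1.55 (adjusted p 0.0168 and 0.00157).

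Among the 6 sensors and effectors of foreign nucleic acid, Zbp1 fell most in both gates. Zbp1, a sensor of Z-form nucleic acid, had 18.6, 25.7 and 15.04 FPKM in B16F10 RFP+ libraries and 161, 165 and 245 FPKM in MC38 RFP+ libraries. In RFP- cells it had 23.9, 19.7 and 18.1 FPKM in B16F10 and 169.8, 179 and 255 FPKM in MC38. The 6 B16F10 libraries lay within 15.0 to 25.7 FPKM, and the log2 differences were -3.21 ± 0.22 and -3.21 ± 0.22 (limma adjusted p 1.16e-07 and 1.06e-07). Zbp1 kept -1.32 and -1.31 on the core scale (adjusted p 5.49e-05 and 5.85e-05). The RNA helicases Ddx58, which codes for RIG-I, and Ifih1, which codes for MDA5, detect viral RNA in the cytosol. Ddx58 had 3.66, 5.71 and 5.47 FPKM in B16F10 RFP+ libraries and 17.6, 14.3 and 25.2 FPKM in MC38 RFP+ libraries. In RFP- cells Ddx58 had 1.25, 3.58 and 1.68 FPKM in B16F10 and 17.5, 16.9 and 28.3 FPKM in MC38. Its log2 difference was -1.73 ± 0.30 in RFP+ cells and -2.82 ± 0.30 in RFP- cells (limma adjusted p 0.000286 and 4.26e-06). The core scale left 0.00 in RFP+ cells, which did not pass, and -1.22 in RFP- cells, which did (adjusted p 0.00279). The difference between the gates was 1.08 ± 0.42 as deposited and did not pass (limma adjusted p 0.895). Ifih1 had 3.13, 4.49 and 3.18 FPKM in B16F10 RFP+ libraries and 14.3, 17.1 and 24.9 FPKM in MC38 RFP+ libraries. In RFP- cells Ifih1 had 0.803, 2.74 and 1.66 FPKM in B16F10 and 13.8, 16.4 and 26.9 FPKM in MC38. It had log2 differences of -2.08 ± 0.30 and -2.88 ± 0.30 (limma adjusted p 7.91e-05 and 4.23e-06), and had -0.38 and -1.34 on the core scale, where RFP- cells alone passed (adjusted p 0.00139). Dhx58, the helicase LGP2, had log2 differences of -1.89 ± 0.24 and -2.06 ± 0.24 and did not pass on the core scale in either gate. Adar, which edits double-stranded RNA, had differences of -1.47 and -1.21 as deposited but 0.30 and 0.58 on the core scale, the second of which passed as higher (adjusted p 0.0261). Eif2ak2, which codes for the translation-blocking kinase PKR, had -1.46 and -1.64 as deposited and 0.22 and 0.00 on the core scale.

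Isg15 codes for a ubiquitin-like protein that is joined to other proteins, and it varied more between libraries of a group than any other of the 42 genes, with a residual SD of 0.80. It had 12.4, 30.8 and 12.02 FPKM in B16F10 RFP+ libraries and 100.1, 114 and 296 FPKM in MC38 RFP+ libraries. In RFP- cells it had 18.01, 26.6 and 8.49 FPKM in B16F10 and 96.5, 104 and 266 FPKM in MC38. Number 11 was high in both B16F10 groups and number 3 in both MC38 groups, yet the tumours did not overlap. The log2 differences were -3.10 ± 0.52 and -3.03 ± 0.52 (limma adjusted p 0.000228 and 0.000235), and -1.22 and -1.15 on the core scale (adjusted p 0.0195 and 0.026). Herc6, the ISG15 ligase of mouse, had log2 differences of -1.20 ± 0.27 and -1.58 ± 0.27, and had 0.59 and 0.21 on the core scale, where neither passed. Parp9, a partner of the ligase Dtx3l, had 8.12, 10.5 and 9.42 FPKM in B16F10 RFP+ libraries and 38.8, 39.9 and 42.4 FPKM in MC38 RFP+ libraries. In RFP- cells Parp9 had 7.53, 8.04 and 7.45 FPKM in B16F10 and 46.2, 37.9 and 46.97 FPKM in MC38. The narrow spread, a residual SD of 0.13, gave Parp9 the smallest p of the 42 genes in RFP- cells, with log2 differences of -2.01 ± 0.14 and -2.36 ± 0.14 (limma adjusted p 1.63e-07 and 3.48e-08). It had -0.18 and -0.53 on the core scale (adjusted p 0.481 and 0.0417). Parp9 and Dtx3l overlap on chromosome 16, and reads from the overlap may be shared. Dtx3l had log2 differences of -1.75 ± 0.32 and -2.20 ± 0.32, and did not pass on the core scale. Parp14, another ADP-ribosyltransferase, had log2 differences of -2.15 ± 0.27 and -2.61 ± 0.27, and remained lower on the core scale in RFP- cells alone (-1.04, adjusted p 0.00246). Trim25, the ubiquitin ligase that acts on RIG-I, had 8.19, 9.01 and 8.78 FPKM in B16F10 RFP+ libraries and 32.4, 40.1 and 36.7 FPKM in MC38 RFP+ libraries. In RFP- cells Trim25 had 3.91, 7.57 and 6.16 FPKM in B16F10 and 30.1, 37.7 and 36.1 FPKM in MC38. Its log2 differences were -1.95 ± 0.20 and -2.40 ± 0.20 (limma adjusted p 2.97e-06 and 4.25e-07). On the core scale Trim25 passed in RFP- cells alone (-0.61, adjusted p 0.0381).

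The 3 IFIT genes on chromosome 19, whose proteins bind foreign RNA ends, had median log2 differences of -2.60 in RFP+ cells and -2.88 in RFP- cells. Ifit3 had 8.39, 20.3 and 7.30 FPKM in B16F10 RFP+ libraries and 75.9, 75.4 and 162 FPKM in MC38 RFP+ libraries. In RFP- cells Ifit3 had 6.07, 14.5 and 7.02 FPKM in B16F10 and 69.4, 56.7 and 155 FPKM in MC38. Its spread was second to that of Isg15, with number 11 high in B16F10 and number 3 high in MC38. Ifit3 had log2 differences of -3.06 ± 0.45 and -3.16 ± 0.45 (limma adjusted p 8.37e-05 and 5.40e-05), and stayed lower on the core scale (-1.20 and -1.32, adjusted p 0.014 and 0.00803). Ifit1 had log2 differences of -2.60 ± 0.44 and -2.88 ± 0.44, and on the core scale passed in RFP- cells alone (-1.09, adjusted p 0.0182). Ifit2 had log2 differences of -2.06 ± 0.38 and -2.44 ± 0.38, and passed in neither gate on the core scale. Reads of Ifit1, Ifit3 and their close copies may be split between them.

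The 6 OAS genes, whose proteins make the messenger that activates RNase L, or are related to those that do, had medians of -2.58 in RFP+ cells and -2.79 in RFP- cells. Oasl2, an OAS-like gene, had 9.13, 15.01 and 11.8 FPKM in B16F10 RFP+ libraries and 91.95, 89.1 and 129 FPKM in MC38 RFP+ libraries. In RFP- cells Oasl2 had 6.49, 11.1 and 9.04 FPKM in B16F10 and 79.1, 87.5 and 136 FPKM in MC38. It had log2 differences of -3.01 ± 0.25 and -3.35 ± 0.25 (limma adjusted p 5.16e-07 and 1.81e-07), and -1.15 and -1.50 on the core scale (adjusted p 0.00153 and 0.000141). Oas3 had 2.97, 3.91 and 2.89 FPKM in B16F10 RFP+ libraries and 19.8, 21.2 and 64.9 FPKM in MC38 RFP+ libraries. In RFP- cells Oas3 had 1.66, 1.49 and 1.66 FPKM in B16F10 and 20.3, 17.2 and 56.3 FPKM in MC38. Within MC38, the libraries with number 3 stood far above the other 4, which held 17.2 to 21.2 FPKM. The log2 differences of Oas3 were -2.88 ± 0.44 and -3.43 ± 0.44 (limma adjusted p 0.00011 and 2.20e-05), and -1.17 and -1.86 on the core scale (adjusted p 0.0133 and 0.000439). Oas1g had log2 differences of -2.57 ± 0.23 and -2.57 ± 0.23, and its neighbour and close copy Oas1a -1.77 ± 0.23 and -1.70 ± 0.23. On the core scale they parted: Oas1g stayed lower (-0.80 and -0.79, adjusted p 0.00714 and 0.00752), and Oas1a had 0.11 and 0.20, neither past the threshold. Reads may be split between these copies, and the difference between them was not tested. Oasl1, known in mouse to hold back Irf7 translation, had log2 differences of -2.59 ± 0.32 and -3.00 ± 0.32 and stayed lower on the core scale (-0.75 and -1.18). Oas2 had log2 differences of -2.27 ± 0.41 and -2.51 ± 0.41 and passed in neither gate on the core scale.

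Of the 15 other effectors, Ifi44 had the log2 difference farthest from 0 of the 42 genes in RFP+ cells, given as a description because of how it entered. Ifi44 had 0.444, 0.943 and 0.0538 FPKM in B16F10 RFP+ libraries and 18.3, 18.1 and 40.4 FPKM in MC38 RFP+ libraries. In RFP- cells Ifi44 had 1.61, 0.335 and 1.12 FPKM in B16F10 and 19.3, 18.7 and 42.3 FPKM in MC38. At levels near 1 FPKM in B16F10, the log2 differences of -4.11 ± 0.39 and -3.73 ± 0.39 depend on the added 1. Ifi44 had -2.85 and -2.31 on the core scale. Mx1, a GTPase that traps viral particles, had 1.48, 1.49 and 1.43 FPKM in B16F10 RFP+ libraries and 13.2, 14.5 and 27.6 FPKM in MC38 RFP+ libraries. In RFP- cells Mx1 had 0.203, 1.46 and 1.31 FPKM in B16F10 and 9.94, 15.4 and 28.2 FPKM in MC38. It had log2 differences of -2.90 ± 0.37 and -3.19 ± 0.37 (limma adjusted p 2.52e-05 and 9.42e-06), and -1.35 and -1.81 on the core scale (adjusted p 0.00463 and 0.000443). Its copy Mx2 was the lowest of the 42 genes, at 0.795, 1.20 and 0.181 FPKM in B16F10 RFP+ libraries and 1.27, 4.83 and 6.75 FPKM in MC38 RFP+ libraries. In RFP- cells Mx2 had 0, 0.442 and 0.0164 FPKM in B16F10 and 2.51, 1.98 and 6.08 FPKM in MC38. Mx2 had a log2 difference of -1.49 ± 0.43 in RFP+ cells, given as a description because of how it entered. Without the MC38 RFP+ library with number 3 that difference was -1.12. Ifitm3, a membrane protein that hinders virus entry, had the highest FPKM of the 42, at 458, 585 and 763 FPKM in B16F10 RFP+ libraries and 1684, 1694 and 2593 FPKM in MC38 RFP+ libraries. Ifitm3 had log2 differences of -1.72 ± 0.22 and -1.66 ± 0.22, and had 0.20 and 0.28 on the core scale, neither past the threshold. Bst2, which tethers budding virus, had log2 differences of -1.80 ± 0.30 and -1.71 ± 0.30 and passed in neither gate on the core scale. The receptor transporter Rtp4 had log2 differences of -2.46 ± 0.31 and -2.93 ± 0.31, and passed on the core scale in RFP- cells alone (-1.04, adjusted p 0.0107). Trim30a, a ubiquitin ligase, had log2 differences of -2.25 ± 0.28 and -2.71 ± 0.28, and likewise passed in RFP- cells alone (-0.91, adjusted p 0.016). Lgals3bp, a secreted glycoprotein, had log2 differences of -1.64 ± 0.20 and -1.32 ± 0.20 as deposited, but on the core scale had 0.28 and 0.61, higher past the threshold in RFP- cells (adjusted p 0.019). The neighbours Rsad2 and Cmpk2 on chromosome 12, which code for the antiviral enzyme viperin and a nucleotide kinase, had log2 differences of -2.16 ± 0.40 and -2.12 ± 0.39 in RFP+ cells and of -2.31 ± 0.40 and -2.92 ± 0.39 in RFP- cells. On the core scale Rsad2 passed in neither gate, and Cmpk2 in RFP- cells alone (-1.20, adjusted p 0.0113). The remaining Xaf1, Ifi35, Isg20, Sp100 and Samd9l had log2 differences between -2.02 and -1.53 in RFP+ cells and between -2.43 and -1.39 in RFP- cells, and none of these 5 passed on the core scale.

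Within MC38, the spread between libraries of a group had a common direction over the 42 genes. The library with number 3 was the highest of its group for 39 of 42 genes in RFP+ cells and 40 of 42 in RFP- cells. Over all genes tested, it was the highest for 36.1% and 34.6%. The exceptions were Trim25, Ifnar1 and Ifnar2 in RFP+ cells, and Trim25 and Ifnar1 in RFP- cells. The median deviation of the 42 genes from the group mean was 0.47 in RFP+ cells and 0.51 in RFP- cells, on the log2 scale. By role, the IFIT genes deviated most (medians 0.72 and 0.86), and the ubiquitin-like and PARP genes least (0.32 and 0.37). Oas3 deviated most of single genes, by 1.08 in RFP+ cells and 1.03 in RFP- cells, and Isg15 by 0.97 and 0.93. The summed FPKM of the 42 genes was 7334 in the RFP+ library and 7065 in the RFP- library with number 3, against 4357 to 4594 in the other 4 MC38 libraries. A second list of 56 further interferon-stimulated genes had medians of 0.33 and 0.37 in these libraries. The 17 genes of interferon gamma (GTPases, Irf1 and the receptor) had medians of -0.01 and -0.02, and the 16 macrophage core genes 0.11 and 0.06. Among the monocyte genes highest in number 3 in both gates (4 of 8) were Ly6c2, Ccr2 and Plac8, picked out after their values were seen. Ly6c2, which codes for a surface protein of blood monocytes and is part of the marker that the sort excluded, had 7.56, 11.9 and 54.1 FPKM in MC38 RFP+ libraries and 10.6, 14.4 and 41.2 FPKM in MC38 RFP- libraries. The 8 genes summed to 164, 227 and 276 FPKM in MC38 RFP+ libraries and to 202, 269 and 261 FPKM in MC38 RFP- libraries. That sum was highest in number 3 in RFP+ cells and in number 2 in RFP- cells. F13a1 alone had 19.1, 81.5 and 30.7 FPKM in RFP+ libraries and 6.17, 52.8 and 6.84 FPKM in RFP- libraries, highest in number 2 in both. The share of all genes highest in number 3 in both gates at once was not counted. The part of monocytes in the pattern was not tested, and no label says what number 3 marks beyond the title.

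**Figure D3:**
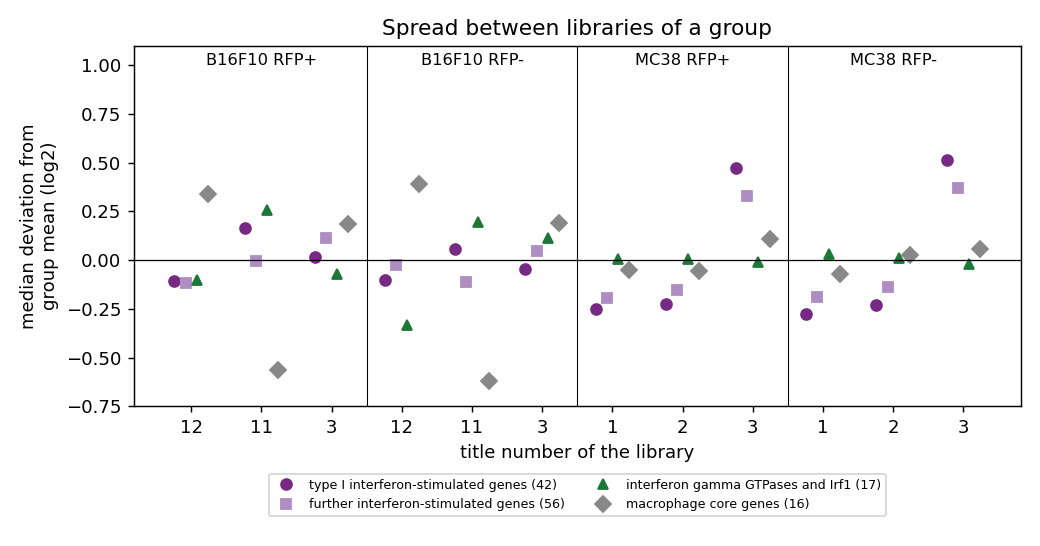
Each point is the median, over the genes of 1 list, of a library's log2 deviation from the mean of its group; the horizontal axis gives the library's title number. The points of the type I interferon-stimulated genes stand at 0.47 and 0.51 for number 3 in MC38 RFP+ and RFP- cells, and those of the interferon gamma list at -0.01 and -0.02.

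Deviations of the same title number went together in both gates for 5 of 6 pairs. Across the 42 genes, which share their libraries and are not replicates, the deviations of the RFP+ and RFP- library had r = 0.92 for MC38 number 3, 0.56 for MC38 number 1 and 0.49 for MC38 number 2. In B16F10 r was 0.54 for number 11 and 0.42 for number 3, and near 0 for number 12. In B16F10 no library was the highest for more than 25 of 42 genes, and number 11 held that count in RFP+ cells. Number 11 carried the most Isg15, Ifit1 and Ifit3 in both B16F10 groups, with deviations of 0.85, 0.84 and 0.85 in RFP+ cells and 0.69, 0.94 and 0.69 in RFP- cells. In that number the macrophage core genes were low, at medians of -0.56 and -0.62. The median SD of the 42 genes within a group was 0.30 in B16F10 RFP+, 0.36 in B16F10 RFP-, 0.42 in MC38 RFP+ and 0.47 in MC38 RFP- (log2 scale, n = 3 libraries each). Over all genes it was 0.19, 0.34, 0.17 and 0.18 in the same groups.

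The reporter gates differed far less than the tumours. No gene of the 42 passed between RFP+ and RFP- cells in B16F10, in MC38, in the mean of both tumours or in the difference between them (limma without pairing). Unadjusted p was under 0.05 for 4, 0, 2 and 1 of the 42 in that order, which is 9.52%, 0%, 4.76% and 2.38%, beside 9.82%, 3.35%, 7.45% and 3.85% of all genes tested at the same unadjusted threshold. In this fit, which leaves out the pairing, the shares of the 42 are no higher than those of all genes. After adjustment, 0.178%, 0.0254%, 0.449% and 0% of all genes passed in it. With the title number as a block, more of the 42 had an unadjusted p under 0.05 in B16F10. Among them were Oas3, Samd9l and Ifit1 (limma with the block, unadjusted p 0.00174, 0.002 and 0.00393). With the block these shares were counted neither for the 42 nor for all genes. In B16F10 32 of 42 genes had a positive difference and the median was 0.30, beside -0.01 over all genes. Without the RFP- library with number 12 that median was 0.15, 34 were positive, and 32 of the 42 differences moved by over 1.5 times, 6 of them with a turned sign. In MC38 21 were positive and 21 negative, and the median was 0.00, with values between -0.24 and 0.23 when 1 of the libraries with number 3 was left out. The groups did not overlap for 6 of 42 genes in B16F10, all higher in RFP+ cells (5.72% of all genes were higher without overlap), and for none in MC38 (6.33% higher and 4.98% lower). These 6 were Ifih1, Ddx58, Cmpk2, Oas3, Parp9 and Trim25. In B16F10 the 8 monocyte genes summed to 177 to 611 FPKM in RFP+ libraries and 91.8 to 327 FPKM in RFP- libraries, and the neutrophil genes to 19.9 to 305 FPKM and 23.6 to 801 FPKM in the same libraries. These ranges overlap. The 10 dendritic cell genes summed to 8.52 to 17.7 FPKM in B16F10 RFP+ and 19.01 to 54.6 FPKM in B16F10 RFP-, which do not overlap. The part of these cell types in the gate differences was not tested.

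Ddx58 was the gene with the clearest gate difference in B16F10. It had 3.66, 5.71 and 5.47 FPKM in RFP+ libraries against 1.25, 3.58 and 1.68 FPKM in RFP- libraries of B16F10, and 17.6, 14.3 and 25.2 FPKM in RFP+ libraries against 17.5, 16.9 and 28.3 FPKM in RFP- libraries of MC38. RFP+ was the higher library in 3 of 3 B16F10 pairs and in 1 of 3 MC38 pairs. The log2 difference in B16F10 was 0.96 ± 0.30 (limma adjusted p 0.402, unadjusted 0.00681). With the title number as a block, its SE was 0.18 and its adjusted p 0.0309, the only one of the 42 past the threshold in that fit, where 1.36% of all genes passed. In MC38, in the mean of both tumours and in their difference, none of the 42 passed with the block, where 0.44%, 1.92% and 0.0339% of all genes did. Without the pair with number 12 the blocked difference was 0.91 and the adjusted p 0.0727. The difference between tumours for Ddx58 was 1.08 ± 0.42 and did not pass with or without the block (adjusted p 0.392 and 0.895).

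Ifih1, the second RNA helicase, had a log2 difference of 0.80 ± 0.30 in B16F10 (limma adjusted p 0.482, 0.0693 with the block), 0.53 without the RFP- library with number 12, and -0.000199 in MC38. Cmpk2 had 9.46, 10.3 and 6.79 FPKM in RFP+ libraries against 1.44, 6.65 and 4.61 FPKM in RFP- libraries of B16F10. In MC38 it had 34.5, 34.3 and 59.4 FPKM in RFP+ libraries against 29.8, 24.7 and 55.98 FPKM in RFP- libraries. RFP+ was higher in 6 of 6 pairs, but the B16F10 difference of 1.04 ± 0.39 did not pass (limma adjusted p 0.482, 0.111 with the block) and was 0.57 without the RFP- library with number 12. Trim25 was higher in RFP+ cells in 6 of 6 pairs as well, with 0.53 ± 0.20 in B16F10 and 0.07 ± 0.20 in MC38, neither past the threshold, and 0.30 in B16F10 without that library. Rsad2, the neighbour of Cmpk2, had 0.58 ± 0.40 in B16F10 and 0.43 ± 0.40 in MC38, again higher in 6 of 6 pairs and not past the threshold, and 0.35 in B16F10 without that library. Usp18, Ifit3 and Eif2ak2 completed the 6 genes that were higher in all pairs, with differences of 0.49, 0.31 and 0.30 in B16F10 and 0.05, 0.20 and 0.12 in MC38. Without that library the B16F10 differences were 0.39, 0.09 and 0.14. Oas1a was the only gene of the 42 lower in all 6 pairs, at -0.23 ± 0.23 in B16F10 (-0.12 without that library) and -0.16 ± 0.23 in MC38. Some of these pair differences lay near 0, such as 0.0079 for Usp18 and 0.013 for Eif2ak2 in MC38 number 1, and -0.032 for Oas1a in B16F10 number 11. The share of all genes higher, or lower, in all 6 pairs was not counted.

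Irf7 had differences of -0.42 for number 12, 0.88 for number 11 and 0.47 for number 3 in B16F10, and of -0.02, 0.04 and -0.07 for numbers 1, 2 and 3 in MC38. The pair with number 12 thus ran against the other 2 in B16F10, and the MC38 pairs were nearly level. Over all pairs Irf7 had 0.31 ± 0.34 in B16F10 (limma adjusted p 0.707, 0.395 with the block), and 0.50 without the RFP- library with number 12. In the blocked fit without number 12 it was 0.67 ± 0.11 in B16F10 (adjusted p 0.0178) and 0.33 ± 0.07 in the mean of both tumours (adjusted p 0.0417). In those fits 0.83% and 1.82% of all genes rose, and Irf7 was the only one of the 42 to do so. Without number 12 the B16F10 values rest on 2 pairs. The receptor chains had gate differences of 0.13 ± 0.17 and -0.17 ± 0.17 for Ifnar1 and 0.03 ± 0.11 and 0.04 ± 0.11 for Ifnar2 in B16F10 and MC38, and the B16F10 value of Ifnar1 was 0.04 without the RFP- library with number 12.

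**Figure D4:**
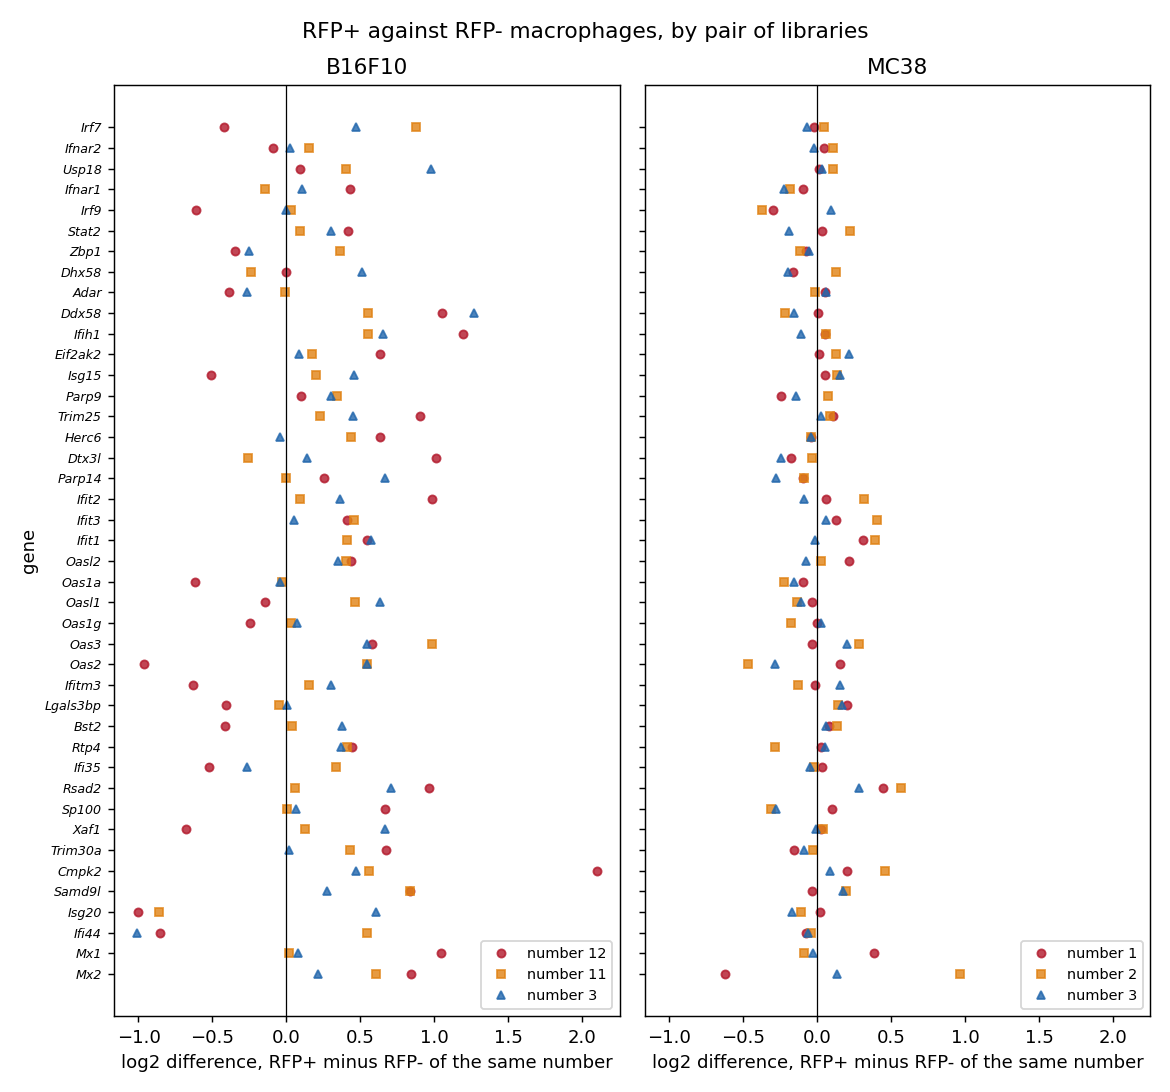
Horizontal axis: log2 difference, RFP+ minus RFP- library of the same title number, for each of the 42 genes; symbols mark the 3 pairs of each tumour. In B16F10 the pairs scatter up to 2.097 (Cmpk2, number 12). There 24, 34 and 35 of 42 genes lie above 0 in numbers 12, 11 and 3, beside 48.5%, 49% and 48.1% of all genes. In MC38 most lie close to 0, with 24, 22 and 17 above 0 in numbers 1, 2 and 3. The shares of all genes above 0 in these MC38 pairs were 50.3%, 50.2% and 50.8%.

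Pathway genes outside the 42 were read from lists of known members. Of 18 type I interferon genes, only Ifnb1 reached the filter, with 2.67, 3.54 and 2.95 FPKM in B16F10 RFP+ libraries and 5.97, 1.77 and 5.15 FPKM in MC38 RFP+ libraries. In RFP- cells Ifnb1 had 1.94, 5.68 and 0.321 FPKM in B16F10 and 2.16, 1.50 and 3.77 FPKM in MC38. The groups overlapped and no comparison passed as deposited (B16F10 minus MC38, log2 -0.28 ± 0.49 in RFP+ cells and -0.18 ± 0.49 in RFP- cells, limma adjusted p 0.647 and 0.775). On the core scale the direction turned, to 1.17 ± 0.49 in RFP+ cells, which passed (limma adjusted p 0.0333), and 1.02 ± 0.49 in RFP- cells, which did not (adjusted p 0.0613). On that scale 84.5% and 83.3% of all genes were higher, and the medians over all genes, 1.83 and 1.85, stood above Ifnb1. The 10 genes of plasmacytoid dendritic cells, the professional interferon alpha producers, summed to 33.2 to 60.4 FPKM in B16F10 RFP+, 36.3 to 72.0 FPKM in B16F10 RFP-, 163 to 168 FPKM in MC38 RFP+ and 161 to 170.2 FPKM in MC38 RFP-. Most of these sums was Irf8, which macrophages express too. Siglech, which marks that cell type, lay between 0 and 0.581 FPKM over the 12 libraries, and Klk1 was at 0 in every MC38 RFP+ library. Beyond these values the part of that cell type was not tested. Of 14 tested genes of the pathway that induces interferon, 11 fell in B16F10 in each gate and 3 did not pass: Mavs, Irf3 and Ticam1. Tmem173, which codes for the DNA-sensing adaptor STING, had -1.78 ± 0.16 and -1.60 ± 0.16. All 9 receptor kinases and feedback genes fell in RFP+ cells, and 8 of 9 in RFP- cells, where Tyk2 did not pass. Of the 56 further interferon-stimulated genes, 51 fell in each gate, with medians of -1.86 in RFP+ cells and -1.88 in RFP- cells. All 17 genes of the interferon gamma list fell in both gates, with medians of -2.61 and -2.88. Beside these list counts, 20% of all genes tested fell in RFP+ cells and 21.9% in RFP- cells. Of the 16 macrophage core genes, 15 fell in each gate.

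On the core scale, the lists parted. The 17 interferon gamma genes had medians of -0.86 in RFP+ cells and -1.23 in RFP- cells, with 9 and 12 lower and 1 higher in each. The 56 further genes had medians of -0.16 and -0.22, with 12 and 18 lower and 11 and 12 higher. The 14 induction genes had medians of 0.39 and 0.59, with none lower and 5 and 6 higher. The 9 receptor kinases and feedback genes had medians of 0.76 and 0.84, with 3 lower and 5 higher in each gate. The scaled medians of all genes, 1.83 and 1.85, stand above all of these. Of all genes, 84.5% were higher and 3.12% lower in RFP+ cells, and 83.3% higher and 3.48% lower in RFP- cells. Between gates, no listed pathway gene passed without the block. With the block, in B16F10, Slfn4 and Trim12a rose (log2 1.25 and 1.05, limma adjusted p 0.0315 and 0.0467), and neither passed without the pair with number 12 (1.12 and 0.75, adjusted p 0.116 and 0.118). Ifitm1, Ly6e and Unc93b1, the last a chaperone of endosomal Toll-like receptors, fell in the same fit (-1.38, -0.70 and -0.71, adjusted p 0.00336, 0.0378 and 0.0108). Without the pair with number 12, which leaves 2 pairs in B16F10, these 3 still passed (-1.32, -0.49 and -0.62, limma adjusted p 0.0138, 0.0157 and 0.00589). In the blocked B16F10 fit with all pairs, 1.36% of all genes passed in either direction. The share of all genes that fell without number 12 is not given.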

How the data were processed

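Each of the 12 libraries was deposited by the authors as a table of gene symbols and FPKM values, per the file headers. The labels name TRI Reagent for RNA, the SMART-Seq HT kit for cDNA and Nextera XT for libraries. TopHat2 2.1.1, Bowtie2 2.2.8, SAMtools 0.1.18, Cuffdiff 2.2.1 and build mm10 are named in the submitters' processing notes. How FPKM was scaled from 1 library to the next, and with which annotation, strand setting and filters, is not given in the sources used here. With FPKM alone no count model applies, and depth is known only as the relative value of a single read, read from the lowest non-zero values.

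Values were tested as log2(FPKM + 1) with limma 3.58.1 (trend, two-sided) in R 4.3.3, in 1 model of 4 group means with 8 residual degrees of freedom. A gene entered if 3 or more libraries reached 1 FPKM, and Benjamini-Hochberg adjustment ran over the 11808 such genes, with a threshold of 0.05. A count of genes that passed always refers to this rule. The step was tested on simulated data.

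Title numbers stand in both gates. Deviations from group means correlated at r of 0.228 to 0.443 in the 6 same-number pairs, and -0.306 to 0.0178 between other numbers, so the numbers pair the libraries. A blocked fit on that number, with 4 residual degrees of freedom, is given where it changed a call.

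The 42 genes, the further lists and the tests were chosen with earlier results of these data known. Members named with values per library were drawn from the signalling genes, up to 20 with the smallest adjusted p, the 4 widest and 2 narrowest spreads, and the smallest p where none passed. Of the genes under this rule, library values are not printed for Oas1g, Trim30a, Parp14, Oasl1, Rtp4, Dhx58, Sp100, Lgals3bp, Ifit1 and Rsad2. The library values of Mx2 and Ifitm3, the lowest and highest levels, were chosen for print after their values were seen. Alternatives were pseudocounts of 0.1 and 5, no filter and a filter of 5 FPKM, quantile normalization, scaling to macrophage core genes, the compared groups alone, the block, and each library left out. Leaving MC38 number 3, B16F10 number 12 or B16F10 number 11 out of both gates was chosen after seeing the data. Gene positions come from GENCODE M21 (GRCm38), and promoter windows and motifs from RefSeq promoters (GRCm38.p6). Python 3.11.15 with matplotlib 3.10.9 made the plots.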

Additional observations from a re-analysis of the deposited data

Results flagged for a closer look

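Trim30a, a ubiquitin ligase gene, was higher in the RFP+ library in 3 of 3 B16F10 pairs and lower in 3 of 3 MC38 pairs. The RFP+ minus RFP- difference in B16F10 less that in MC38 was 0.47 on the log2 scale. The test of this difference did not pass (limma, SE 0.40, adjusted p 0.895 without the block and 0.589 with it). Without the B16F10 RFP- library with number 12 the difference was 0.30. Some of its pair differences lay near 0, at 0.016 in B16F10 number 3 and -0.032 in MC38 number 2. Trim30a was the only gene of the 42 whose pairs ran in opposite directions in the tumours. The share of all genes with such a pattern was not counted.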

How the results depend on the processing

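Between tumours, 42 of 42 genes stayed lower in both gates under every alternative except the core scaling and 2 others: a filter of 5 FPKM tested 41 of them, and leaving out each library in turn gave 41 to 42 in RFP+ cells and 42 in RFP- cells. Scaling to the macrophage core genes left 11 lower and 2 higher in RFP+ cells and 21 lower and 3 higher in RFP- cells. That scaling turned 14 genes in RFP+ cells (Irf9 0.24, Isg20 0.0542, Ifi35 0.37, Ddx58 0.00427, Oas1a 0.11, Bst2 0.12, Eif2ak2 0.22, Adar 0.30, Ifnar1 0.71, Ifnar2 0.70, Ifitm3 0.20, Lgals3bp 0.28, Herc6 0.59 and Samd9l 0.17). It turned 12 in RFP- cells (Irf9 0.27, Isg20 0.41, Ifi35 0.52, Oas1a 0.20, Bst2 0.22, Eif2ak2 0.00459, Adar 0.58, Ifnar1 0.43, Ifnar2 0.73, Ifitm3 0.28, Lgals3bp 0.61 and Herc6 0.21). The scaling itself sets the macrophage core genes level, and the cause beyond that was not tested. Between gates, 0 genes passed in the fit without pairing and with any library left out. The replicate block, and the block without B16F10 number 12, each gave 1 higher gene in B16F10, and the second also 1 in the mean of both tumours, while the block changed no other call on the 42. Lgals3bp in MC38 was 0.17 as reported, -0.0149 under the core scaling and -0.00724 without the MC38 RFP+ library with number 3. With each library left out, the median gate difference ranged from 0.15 to 0.34 in B16F10 and from -0.24 to 0.23 in MC38, and the median tumour difference from -2.17 to -1.85 in RFP+ cells and from -2.55 to -2.15 in RFP- cells. Depth limits Mx2 and Ifi44, which were near or under 1 FPKM in B16F10.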
